A study of Mus musculus with 87 samples.

Results

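Gene expression was compared between 2 hearts of mouse embryos homozygous for the deletion of boundary B6 and 8 wild-type hearts from the lines of 3 other boundary deletions. These 10 hearts were every B6 homozygous heart and every wild-type heart of LocusB2 (4 hearts), LocusB3 (2 hearts) and LocusB5 (2 hearts) among 20 hearts and 64 RNA samples, in a series of 87 samples. All were whole embryonic hearts at embryonic day 11.5 from FVB mice, and each line descends from 1 founder carrying a deletion made by CRISPR/Cas9 in zygotes. The wild-type hearts carry no deletion but come from the B2, B3 and B5 colonies, and wild-type hearts of the B6 line were not analysed here. Line and genotype are therefore confounded: every value below is a difference between B6 homozygous hearts and wild-type hearts of other lines, and the part of the deletion and the part of the line cannot be told apart.

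A topologically associating domain is a stretch of chromosome whose segments contact each other more often than they contact the outside, and its boundaries, many of them bound by CTCF and cohesin, limit which enhancers meet which promoters. The heart at this stage is a looped tube in which the chambers are ballooning. Its ventricles grow a sponge of muscle ridges called trabeculae, endocardial cushions fill with mesenchyme that will form valves, and a layer of epicardium spreads over the surface. A dissected heart also holds blood and may carry pieces of the pharyngeal arches, gut tube or liver that lie beside it.

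Boundary B6 was deleted with 2 guide RNAs on each side. They are shown because they define the deleted piece, the only designed difference between B6 and a wild-type chromosome. Each is written 5′ to 3′ as protospacer followed by its PAM, the NGG that Cas9 needs, in capitals, and each matched mm10 chromosome 12 at 1 place.
B6 5′ sgRNA 1: gggcactgggtttcttctatCGG
B6 5′ sgRNA 2: tattgcctcaatggaataggTGG
B6 3′ sgRNA 1: agtaagcaatggttttgcatTGG
B6 3′ sgRNA 2: gtctctgacacttgtttgctTGG

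B6 5′ sgRNA 1 lies at chr12:35181353-35181375 on the minus strand and B6 5′ sgRNA 2 at chr12:35181327-35181349 on the plus strand. B6 3′ sgRNA 1 lies at chr12:35194436-35194458 on the plus strand and B6 3′ sgRNA 2 at chr12:35194544-35194566 on the minus strand. The study's deletion, chr12:35181339-35194452 and 13113 bp long, ends exactly where Cas9 would be expected to cut with 3′ sgRNA 1 and starts 4 bp from the expected cut of 5′ sgRNA 2. It is intergenic. No annotated gene overlaps it, so no transcript level can check the genotype of the 2 B6 hearts.

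The libraries held 21059788 counts (A6) and 19668856 counts (A8) in the B6 hearts, named by their library codes, and 18790226 to 22610007 counts in the wild-type hearts. No pair of replicates was a repeated library: in 18 replicate pairs the chi-square per gene was at least 8.87. The tissue label held, since heart muscle transcripts were abundant in both B6 hearts on the length-normalised TPM scale. Actc1, the cardiac actin, was at 7556 and 8203 TPM and the troponin Tnnt2 at 3634 and 3138 TPM. The transcription factors Nkx2-5 (214 and 199 TPM) and Gata4 (146 and 141 TPM) were also well expressed. The X-inactivation RNA Xist and the Y-linked gene Ddx3y placed A6 and A8 in different sexes, with Ddx3y at 65.0 CPM (counts scaled to library size, per 1e6 counts) in A6 and at 0 in A8. The wild-type hearts were also of both sexes, and 1 of them, A59 of B2, had both transcripts (Xist 8.19 CPM, Ddx3y 32.7 CPM).

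No gene passed the test. With edgeR's quasi-likelihood test, 0 of 15512 genes had a Benjamini-Hochberg adjusted p under 0.05, and the smallest was 0.0734. At an unadjusted p under 0.05 there were 2613 genes (16.8%), 1288 higher (8.30%) and 1325 lower (8.54%) in the B6 hearts, and DESeq2 called 403 higher (2.60%) and 271 lower (1.75%). Without the B3 wild-type heart A14, edgeR called 85 genes higher and 2 lower. Both B6 hearts lay above all 8 wild-type hearts for 1843 genes (11.9%) and below them for 1413 genes (9.11%). These shares are the background for every count below, and the median log2 fold change of all genes was -0.09. All CPM values are on 1 scale, with TMM scaling over the 20 hearts, whereas log2 fold changes come from the fit of the 10 hearts. They are given as B6 over wild-type, as values of genes that did not pass the test.

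The gene with the smallest p among those higher in the B6 hearts was Acacb, followed by Flnc. Acacb encodes the mitochondrial acetyl-CoA carboxylase, whose product restrains fatty acid import into mitochondria. It was at 74.1 and 75.1 CPM in the B6 hearts and at 31.9, 36.1 and 42.5 CPM as lowest, median and highest of the wild-type hearts (log2 fold change 1.03 ± 0.12 SE, edgeR adjusted p = 0.0734). Flnc, filamin C, which crosslinks actin at the Z-disc, was at 543 and 536 CPM against 185, 227 and 304 CPM (1.22 ± 0.16, adjusted p = 0.0738). For both genes the 2 B6 hearts were nearly equal. The naming rule itself required them to lie outside every wild-type heart.

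The other 10 genes that the naming rule took in this direction had log2 fold changes from 0.67 (Lrig1) to 1.15 (Col4a6), each with an edgeR adjusted p of 0.138. Rbm20, the splicing regulator of titin, was at 117 and 108 CPM against 42.8, 54.1 and 77.7 CPM. Syne1, which ties the nucleus to the cytoskeleton, was at 40.6 and 40.4 CPM against 15.7, 17.8 and 25.4 CPM. The unconventional myosins Myo18a (log2 fold change 0.72) and Myo18b (0.91) and the T-type calcium channel Cacna1h (0.77) were also among them. So were Ntn1 (1.11), the guidance cue netrin 1, the basement membrane collagen Col4a6 (1.15), the AP-1 factor Fosl2 (1.09), the adhesion molecule Sdk1 (0.79) and Lrig1, a restraint on growth factor receptors. Reads of Lrig1 and Rbm20 may include some of an overlapping neighbour.

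The gene with the smallest p among those lower in the B6 hearts was Tyms. Tyms, thymidylate synthase, which makes a DNA precursor, was at 38.3 and 39.3 CPM against 59.9, 65.6 and 72.9 CPM (-0.78 ± 0.12, adjusted p = 0.138). The flap endonuclease Fen1 was at 46.8 and 55.7 CPM against 69.2, 79.2 and 87.8 CPM, and Xrcc5, the larger Ku subunit of end joining, at 26.1 and 26.6 CPM against 35.9, 40.8 and 45.8 CPM. For Tyms and Xrcc5 the 2 B6 hearts were again nearly equal, and the naming rule required them to lie under every wild-type heart. Coro1a (-1.23) and Fermt3 (-1.22) are cytoskeletal and integrin-activating genes of blood cells. The remaining 7 were Samd14 (-0.93), Mpst (-0.81), Pin4 (-0.68), the developmental gene Mab21l2 (-1.24), Ccdc24 (-1.56), the chromatin remodelling subunit Smarcd2 (-0.64) and the histone chaperone Anp32b (-0.58). Mab21l2, Ccdc24, Coro1a, Fermt3 and Fen1 overlap other genes, so their reads could be shared.

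**Figure D1:**
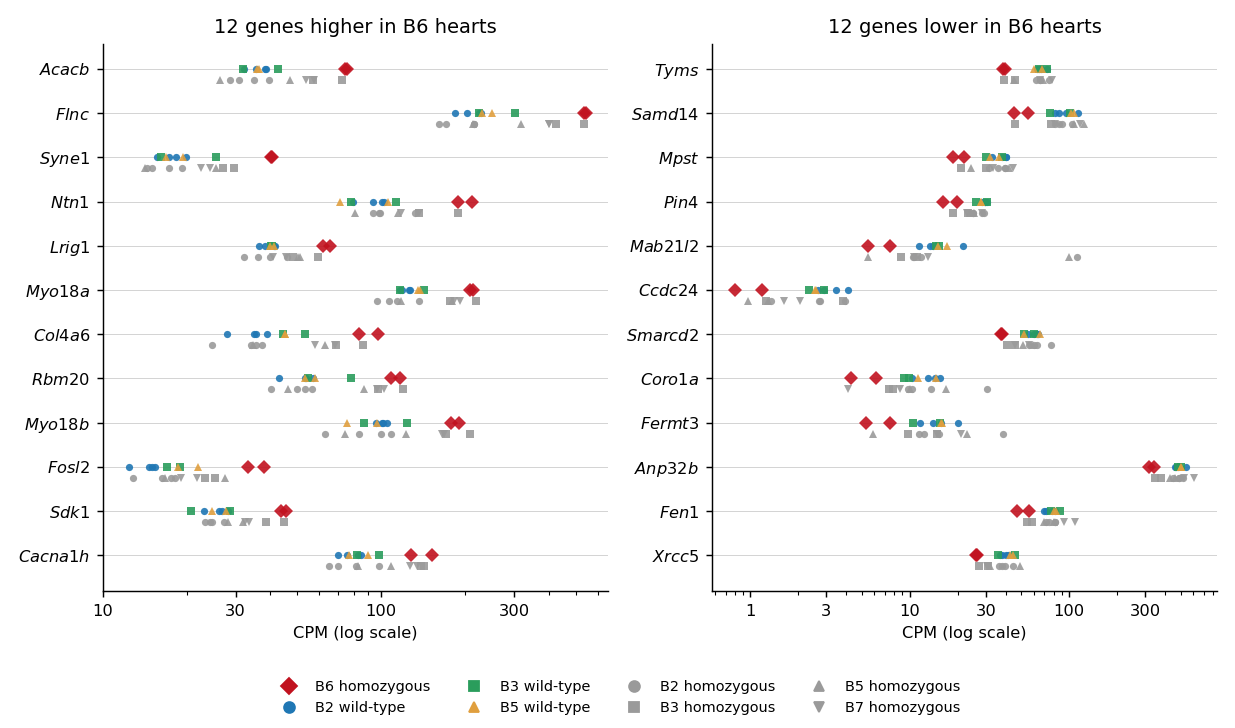
Level in CPM (horizontal log scale) of the 12 genes named as higher (left) and the 12 named as lower (right), with 1 mark for each of 20 hearts, coloured for the B6 homozygous and wild-type hearts and grey for homozygous hearts of other lines. The 2 B6 hearts lie outside the 8 wild-type hearts for all 24 genes, as the naming rule required, while grey marks reach them in many rows.

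The 10 homozygous hearts of other lines put these values in context. Both B6 hearts lay above all of them for 576 genes (3.71%) and below all of them for 358 genes (2.31%). Of the 12 higher genes, 5 lay above the other homozygous hearts too: Acacb, Syne1, Ntn1, Lrig1 and Fosl2. The B3 homozygous heart A10 was close to the B6 hearts for Acacb (72.6 CPM), Flnc (536 CPM) and Tyms (38.8 CPM). Of the 12 lower genes, Smarcd2, Anp32b and Xrcc5 lay below all 18 other hearts, as did 264 of all genes (1.70%), while 481 (3.10%) lay above all 18.

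The comparison followed transcript length. With genes in 5 equal groups by exon length, the median log2 fold change went from -0.44 in the shortest group through -0.26, -0.09 and 0.08 to 0.36 in the longest. The share of genes with both B6 hearts above all wild-type hearts went from 1.13% to 29.9% along the same groups, and the share below from 13.8% to 2.24%. The B2 wild-type hearts carried most of it: against B2 alone the medians ran from -0.64 to 0.80, against B5 alone from -0.14 to 0.20, and against B3 alone from -0.04 to 0.04. In the longest group the 2 B6 hearts, at 0.41 and 0.40 above the wild-type mean, lay near the 2 B3 wild-type hearts at 0.33 and 0.39, and the 4 B2 wild-type hearts lay at -0.23 to -0.39. How much of the length pattern comes from library preparation was not tested.

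**Figure D2:**
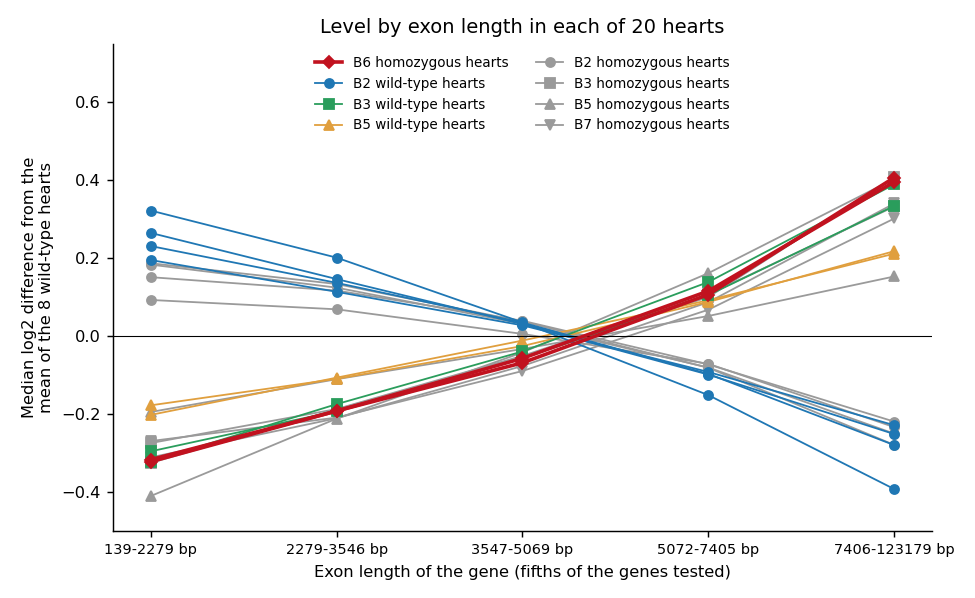
Median log2 difference from the mean of the 8 wild-type hearts (vertical axis) in 5 groups of tested genes by exon length in bp (horizontal axis), with 1 line per heart for 20 hearts. Lines of the B2 hearts slope down and lines of the B6, B3, B5 and B7 hearts slope up, with the B6 hearts at 0.41 and 0.40 in the longest group.

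Long genes moved most when this was taken out, and Syne1 is among the longest, with 7 tested genes of at least its exon length. With the length trend removed, an alternative chosen after seeing the data, Syne1 had a log2 fold change of -0.17 and titin -0.67, against 1.12 and 1.14 before. Acacb kept 0.66, Flnc 0.88, Ntn1 0.97 and Fosl2 0.74, and among the lower genes Tyms kept -0.90 and Coro1a -1.04. The lists below, apart from those of neighbouring tissues, are given with their median before and after this step.

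Heart muscle genes were divided. Of 22 sarcomere genes tested, 6 lay above all wild-type hearts and 0 below (median -0.17, and 0.06 with the length trend removed). Titin (Ttn), the spring of the sarcomere, was at 228 and 280 CPM against 76.8, 112 and 192 CPM, and Ldb3, a Z-disc protein, at 485 and 481 CPM against 236, 278 and 383 CPM. The myosin heavy chain Myh6 was at 3518 and 3189 CPM against 1480, 2405 and 2935 CPM (log2 fold change 0.51). Both B3 homozygous hearts exceeded both B6 hearts for Ttn (290.9 and 335.4 CPM) and Myh6 (4607.8 and 3916.5 CPM). The B3 homozygous heart A10 also exceeded them for Ldb3 (513 CPM). Myh7 (0.48), Tnnt2 (-0.40) and the atrial peptide Nppa (-0.55) overlapped the wild-type hearts. These 3 genes vary by line in the controls, and against B3 and B5 wild-type hearts alone the sarcomere median was 0.62, with Tnnt2 at 0.49 and Nppa at 0.82.

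Cardiac transcription factors had 6 of 19 above and 1 below (median 0.21, and 0.18 with the length trend removed). Tbx20, a T-box factor needed for chamber growth, was at 430 and 468 CPM against 76.5, 144 and 370 CPM (1.33 ± 0.43, edgeR unadjusted p = 0.0108) and also lay above all 10 other homozygous hearts. Its levels differed by line among the controls, with the B2 wild-type hearts between 76.5 and 138 CPM and the B3 wild-type hearts at 370 and 237 CPM. Mef2a was at 180 and 168 CPM against 55.2, 93.7 and 136 CPM. Nkx2-5, which specifies cardiac muscle, overlapped (201 and 202 CPM against 103, 234 and 457 CPM).

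Genes of chamber identity gave fewer such members. Of 8 atrial genes, 1 lay above (median -0.42, and -0.21 with the length trend removed), namely Kcnj3, a subunit of the atrial potassium channel gated by G proteins (24.05 and 18.4 CPM against 9.73, 13.2 and 16.8 CPM). The atrial median changed sign, to 0.37, against B3 and B5 wild-type hearts alone. Of 6 ventricular genes, 1 lay above (median 0.17, and 0.21), namely Hey2, the Notch effector of ventricular muscle (71.7 and 69.9 CPM against 34.99, 52.2 and 64.9 CPM). Both B6 hearts were exceeded by the B3 homozygous heart A10 for Kcnj3 (27.9 CPM) and by the B5 homozygous heart A22 for Hey2 (81.4 CPM).

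Calcium handling and conduction genes, which carry the beat, had 8 of 19 members above all wild-type hearts and 0 below (median 0.51, and 0.39 with the length trend removed). The calcium release channel Ryr2 was at 248 and 208 CPM against 45.4, 69.4 and 130 CPM (1.52 ± 0.30, adjusted p = 0.138), and 0.56 with the length trend removed. Cacna1c, the pore of the L-type calcium channel, was at 82.5 and 76.0 CPM against 18.3, 26.7 and 46.1 CPM. Gja1, connexin 43 of the gap junctions, was at 331 and 376 CPM against 176, 208 and 247 CPM. Cacna1c and Gja1 lay above all 18 other hearts, whereas the B3 homozygous heart A10 exceeded both B6 hearts for Ryr2 (266 CPM).

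Trabeculation genes had 8 of 14 members above and 0 below (median 0.57, and 0.38 with the length trend removed). Erbb4, the receptor through which neuregulin drives trabecular growth, was at 66.5 and 56.9 CPM against 8.15, 16.2 and 37.4 CPM (1.61 ± 0.43, unadjusted p = 0.00311). Bmp10, a ligand of trabecular muscle, was at 40.7 and 49.6 CPM against 1.74, 6.77 and 31.4 CPM (2.11 ± 0.80, unadjusted p = 0.0236). For both, the 4 B2 wild-type hearts were the 4 lowest controls and the B3 wild-type heart A14 the highest.

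Genes of the other heart layers gave smaller positive medians. The endothelial and endocardial list had 7 of 18 above and 1 below (median 0.22, and 0.15 with the length trend removed), with the angiopoietin receptor Tek at 167 and 163 CPM against 89.2, 100 and 126 CPM. The natriuretic peptide receptor Npr3 was at 152 and 143 CPM against 59.2, 90.1 and 110 CPM. Valve and cushion mesenchyme had 3 of 14 above and 0 below (median 0.30, and 0.35). Postn, a matrix protein of cushion mesenchyme, was at 297 and 303 CPM against 90.3, 161 and 212 CPM, and the cushion proteoglycan Vcan at 548 and 535 CPM against 112, 173 and 402 CPM. Both lay above all 18 other hearts. The epicardial list had 5 of 12 above and 0 below (median 0.30, and 0.47), and its transcription factor Tbx18 was at 86.0 and 86.1 CPM against 37.6, 53.8 and 75.03 CPM. The B3 homozygous heart A10 exceeded both B6 hearts for Npr3 (183 CPM) and Tbx18 (101 CPM), and the B5 homozygous heart A22 did for Tbx18 (93.0 CPM).

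Extracellular matrix genes had 10 of 23 members above and 0 below (median 0.47, and 0.20 with the length trend removed). They are long, with a median exon length of 7772 bp. The paired basement membrane collagens Col4a1 and Col4a2, which share a promoter region, were at 1002 and 943 CPM against 467, 532 and 674 CPM, and at 632 and 661 CPM against 350, 359 and 461 CPM. Fbln2, a fibulin of cushions, was at 313 and 289 CPM against 132, 177 and 217 CPM and above all 10 other homozygous hearts. The log2 fold changes of the 3 genes with the length trend removed were each 0.61, against 0.76 to 0.82 before.

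The protein kinase A list had 9 of 17 members above and 0 below (median 0.50, and 0.27 with the length trend removed). It was included because Prkar2b, a regulatory subunit of this cAMP-dependent kinase, is a gene the study names beside B6. The anchoring proteins Akap6 and Akap1 hold the kinase at the nuclear envelope and at mitochondria. Akap6 was at 40.05 and 48.5 CPM against 9.22, 15.2 and 26.6 CPM, and Akap1 at 86.9 and 89.8 CPM against 50.3, 56.2 and 67.7 CPM. The adenylyl cyclase Adcy6, which makes cAMP, was at 275 and 243 CPM against 147, 161 and 190 CPM. Prkar2b itself overlapped the wild-type hearts.

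Metabolic lists had few members outside the wild-type range. Fatty acid and creatine metabolism had 3 of 16 above and 0 below (median 0.09, and 0.37 with the length trend removed), including Ppargc1a, the coactivator of mitochondrial biogenesis (60.9 and 64.1 CPM against 16.2, 25.4 and 45.2 CPM), and Cpt1a, which loads fatty acids onto carnitine (41.2 and 42.3 CPM against 22.7, 26.9 and 34.1 CPM). Nuclear oxidative phosphorylation had 1 of 22 above (median -0.26, and 0.02). Against B3 and B5 wild-type hearts alone its median was 0.37, and that of glycolysis and hypoxia was 0.17. Glycolysis and hypoxia had 2 of 24 above and 1 below (median -0.21, and -0.02), and the 13 mitochondrially encoded genes had 0 outside the wild-type range (median 0.05, and 0.41). Immediate early and heat shock genes, which respond to handling of tissue, had 1 of 17 above (median 0.18, and 0.31).

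Cell cycle genes had 12 of 23 members below all wild-type hearts and 0 above (median -0.24, and -0.20 with the length trend removed), against 9.11% below among all genes. Besides Tyms, Birc5, the survivin of mitosis, was at 57.0 and 66.1 CPM against 80.1, 93.7 and 120 CPM. The mitotic kinase Aurkb was at 34.2 and 39.4 CPM against 44.5, 52.4 and 57.3 CPM. The summed level of the list was 2441 and 2828 CPM against 2866 to 3476 CPM, and 4 of the 23 genes were called lower by DESeq2. The mean log2 difference of the list from the wild-type mean was -0.34 and -0.14 in the B6 hearts. It was -0.21 and -0.18 in the B3 homozygous hearts, and 0.21 and 0.28 in those of B7. The B3 homozygous heart A10 lay between the 2 B6 hearts for Birc5 (58.7 CPM) and Aurkb (36.9 CPM).

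Blood RNA differed between the 2 B6 hearts and was low in one of them. In a whole organ, fewer cells of a type and less RNA per cell cannot be told apart. The summed erythroid list was at 10255 CPM in A6 and 38963 CPM in A8, against 25965 to 103212 CPM in the wild-type hearts, and 2 of 13 tested members lay below all wild-type hearts (median -1.32, and -1.16 with the length trend removed). The alpha globin Hba-a1 was at 2976 and 10838 CPM against 5648, 21192 and 31566 CPM. The erythropoietin receptor Epor (7.02 and 12.5 CPM against 15.0, 20.4 and 35.7 CPM) and the erythroid factor Klf1 (5.82 and 20.8 CPM against 21.01, 29.5 and 65.2 CPM) were the 2 members below. Without A6 the median of this list was -0.69 and without A8 it was -2.53, so the list rests mostly on A6.

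Of the 5 megakaryocyte and platelet genes, 3 lay below all wild-type hearts and 3 were called lower by DESeq2 (median -1.34, and -1.04 with the length trend removed). The chemokine Pf4 was at 9.16 and 9.84 CPM against 12.9, 24.9 and 39.5 CPM. The median was -1.36 without A6 and -1.40 without A8. Macrophage genes had 0 of 14 outside the wild-type range (median -0.52, and -0.31). How far blood content takes part in the other differences was not tested.

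Markers of tissues beside the heart differed widely among the wild-type hearts. Many are near 0 in the B6 hearts and could pass the filter on low counts only through wild-type hearts in which they are high, so they had to be lower in B6 and no count or median over the tested ones is given for the lists of this kind. The levels below are sums over every gene of a list, tested or not. The 13 endoderm and epithelium genes summed to 54.0 and 63.5 CPM in the B6 hearts against 91.6 to 254 CPM in the wild-type hearts. The tight junction gene Cldn6 was at 0.0889 and 0.198 CPM against 0.609, 8.68 and 35.8 CPM, and the epithelial adhesion gene Epcam at 0.578 and 0.297 CPM against 0.660, 6.56 and 29.95 CPM. The wild-type hearts A16 of B3 and A23 and A24 of B5 were the highest 3 for Cldn6.

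The 39 Hox genes, expressed in the trunk and posterior arches, summed to 16.2 and 10.1 CPM against 16.7 to 272 CPM, and 19 of them passed the filter while 13 had 0 counts in both B6 hearts. Hoxa4 was at 0.222 and 0.148 CPM against 0.406, 8.12 and 22.02 CPM, with A55 of B2 as the lowest wild-type heart. For Hoxc5 the B6 hearts held 1 count against 795 in the wild-type hearts, a ratio of 209-fold with a counting interval of 37.4 to 8266. The wild-type heart A24 alone held 361 of those counts, the lowest wild-type heart held 2, and the ratio without A24 was 133-fold.

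The 17 cranial and pharyngeal mesenchyme genes, 14 of them tested, summed to 81.0 and 70.2 CPM against 81.8 to 180 CPM. The arch factor Lhx6 was at 0.178 and 0.297 CPM against 0.660, 1.94 and 4.50 CPM. The 18 neural crest and neuronal genes, 17 of them tested, summed to 61.0 and 60.2 CPM, inside the wild-type range of 55.1 to 195 CPM. Foxd3, which marks early neural crest, was not counted in either B6 heart against 209 counts in the wild-type hearts, at least 18.3-fold lower with a floor of 3 counts over the group. The lowest wild-type heart held 2 of those counts. The 13 skeletal muscle genes, 10 of them tested, summed to 33.3 and 37.4 CPM against 34.9 to 78.9 CPM.

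The second heart field and liver lists were not at the low end. The 10 second heart field genes summed to 266 and 241 CPM against 179 to 257 CPM, and 2 of them lay below all wild-type hearts (median log2 fold change -0.26). Tbx1, which acts in pharyngeal and second heart field progenitors, was at 0.356 and 0.198 CPM against 0.507, 3.59 and 8.15 CPM. The 14 liver transcripts summed to 52.5 and 15.3 CPM against 8.68 to 213 CPM. The part of dissection in these lists was not tested.

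**Figure D3:**
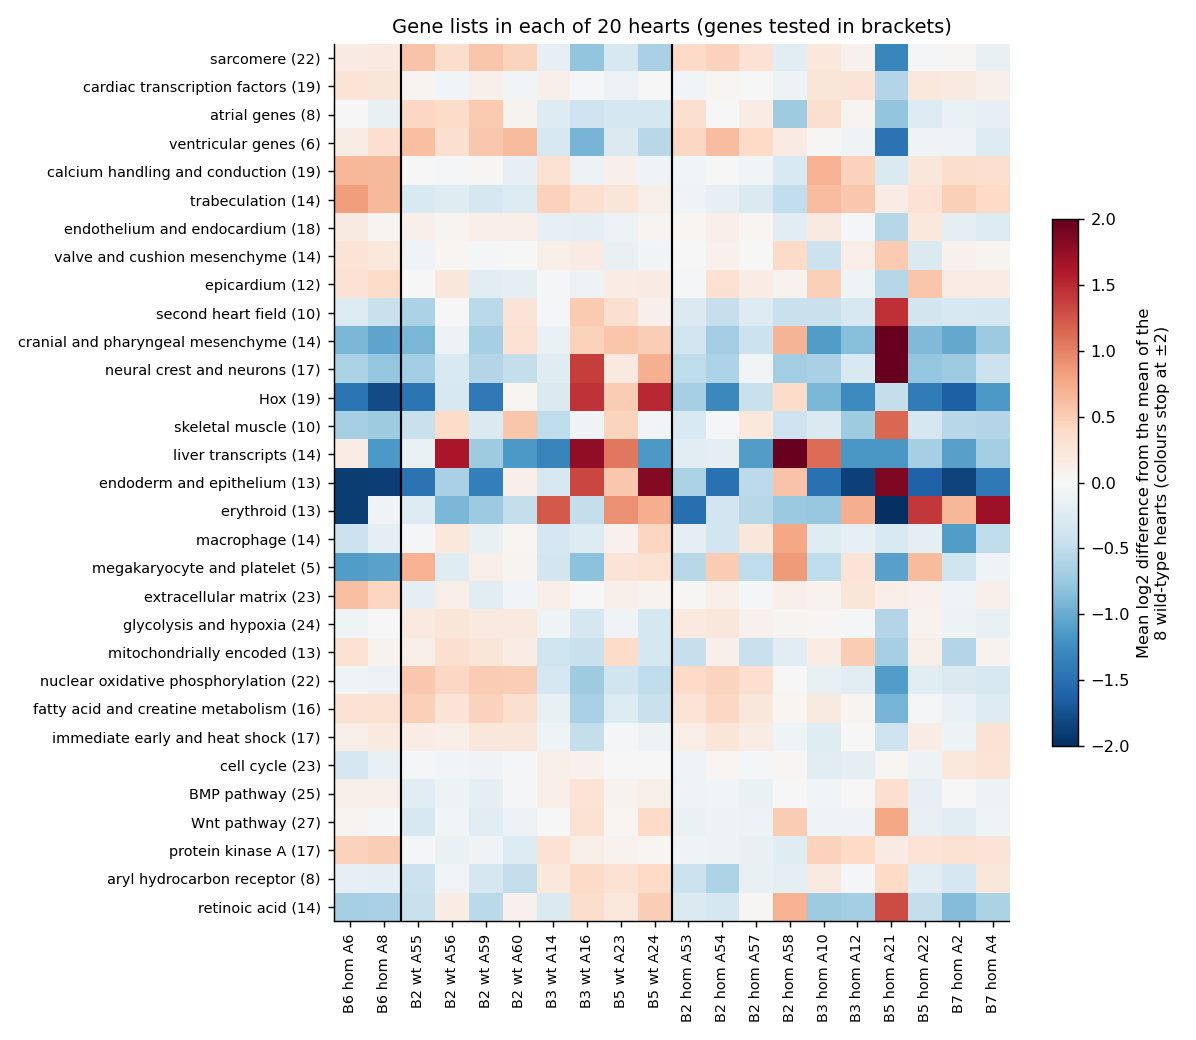
Mean log2 difference from the mean of the 8 wild-type hearts (colour, stopping at ±2) for 31 gene lists (rows, genes tested in brackets) in 20 hearts (columns, B6 first, then wild-type, then other homozygous hearts). The B6 columns are red for calcium handling, trabeculation and extracellular matrix and dark blue for Hox and endoderm. The B3 and B7 homozygous hearts share the blue of Hox and endoderm and the red of calcium handling (0.69 and 0.46, 0.36 and 0.33, against 0.67 and 0.65 in B6) and of trabeculation (0.62 and 0.54, 0.47 and 0.39, against 0.84 and 0.65).

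Signalling lists gave mixed counts. The BMP pathway had 6 of 25 above and 1 below (median 0.11, and 0.19 with the length trend removed). The 1 below was Sostdc1, with 1 count in each B6 heart. It could pass the filter on low counts only through wild-type hearts, so it had to be lower. The BMP receptor Acvr1 was at 49.9 and 47.1 CPM against 33.2, 36.1 and 40.3 CPM, above all 18 other hearts. The Wnt pathway had 5 of 27 above and 3 below (median -0.15, and -0.11), and the ligand Wnt2 was at 6.31 and 4.65 CPM against 6.61, 16.5 and 23.9 CPM. The other members below were Sostdc1 and another Wnt ligand, at 0.178 and 0.198 CPM in the B6 hearts. Both could pass the filter only through wild-type hearts, so they had to be lower. Retinoic acid genes had 0 of 14 above and 2 below (median -0.70, and -0.56). The binding protein Crabp2 was at 1.82 and 1.48 CPM against 2.98, 14.7 and 30.8 CPM, and its highest wild-type heart was A24. Aryl hydrocarbon receptor genes, listed because Ahr lies beside B6, had 2 of 8 above and 0 below (median 0.20, and 0.02). The classic target Cyp1b1 was at 1.42 and 0.495 CPM against 1.37, 7.39 and 17.4 CPM.

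The genes around boundary B6 were read in order along the chromosome. Within 1 Mb of the deletion the annotation holds 15 genes, of which 6 had enough counts to test. Both B6 hearts lay above all wild-type hearts for 2 of the 6, the 2 nearest on the proximal side, and below them for 0. DESeq2 called 0 of them. On the whole of chromosome 12, 85 of 550 tested genes (15.5%) lay above and 47 below. The 2 genes above, Snx13 and Hdac9, were both in the longest of the 5 groups by exon length. In that group 29.9% of all genes lay above.

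Snx13, a sorting nexin of endosomes and the nearest tested gene, lies at chr12:35047186-35147479 on the plus strand and ends 33.9 kb before the deletion. It was at 43.2 and 43.03 CPM in the B6 hearts. The B2 wild-type hearts ranged from 18.8 to 27.6 CPM, the B3 wild-type hearts from 30.1 to 35.3 CPM and the B5 wild-type hearts from 25.7 to 32.2 CPM. The 10 other homozygous hearts reached 41.9 CPM, so both B6 hearts lay above all 18. The log2 fold change was 0.68 (95% interval 0.22 to 1.13), with an edgeR unadjusted p of 0.00733 and an adjusted p of 0.206. It was 0.44 with the length trend removed (edgeR unadjusted p = 0.00896), and 0.97, 0.38 and 0.57 against the B2, B3 and B5 wild-type hearts alone.

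Hdac9, a class IIa histone deacetylase that restrains MEF2 factors in muscle, lies at chr12:34047580-34917095 on the minus strand, 264 kb before the deletion. It was at 37.6 and 33.04 CPM against 12.2 to 18.9 CPM in B2, 20.1 to 26.4 CPM in B3 and 15.1 to 26.7 CPM in B5 wild-type hearts. One heart of B3 homozygous embryos, at 33.8 CPM, lay between the 2 B6 hearts. The log2 fold change was 0.91 (0.31 to 1.501, unadjusted p = 0.00639, adjusted p = 0.198). With the length trend removed it was 0.32 (edgeR unadjusted p = 0.174). Against the B2, B3 and B5 wild-type hearts alone it was 1.25, 0.58 and 0.75. Both genes were past the threshold when each line was its own group, with edgeR adjusted p of 0.00737 for Snx13 and 0.0129 for Hdac9. So were 4152 of all 15512 genes in that fit. That fit takes its error from hearts within a line and not from the spread between lines.

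On the distal side no tested gene within 1 Mb stood outside the controls. Ahr, the aryl hydrocarbon receptor, 304 kb after the deletion, was at 5.07 and 6.03 CPM against 1.59, 4.05 and 6.70 CPM (log2 fold change 0.41, -0.51 to 1.34). The tetraspanin Tspan13 was at 79.2 and 70.2 CPM against 53.3, 71.3 and 80.8 CPM. Bzw2 (157 and 142 CPM against 139, 189 and 243 CPM) and Ankmy2 (24.1 and 24.04 CPM against 20.7, 27.3 and 30.8 CPM) overlap each other on opposite strands. For Bzw2 the B6 hearts sat with the B3 and B5 wild-type hearts and apart from the B2 hearts. Of the 9 genes not tested within 1 Mb, Agr2 had 2 counts in the B6 hearts and 23 in the wild-type hearts, and Mir680-3, only 359 bp after the deletion, had 0 counts in all 10 hearts.

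**Figure D4:**
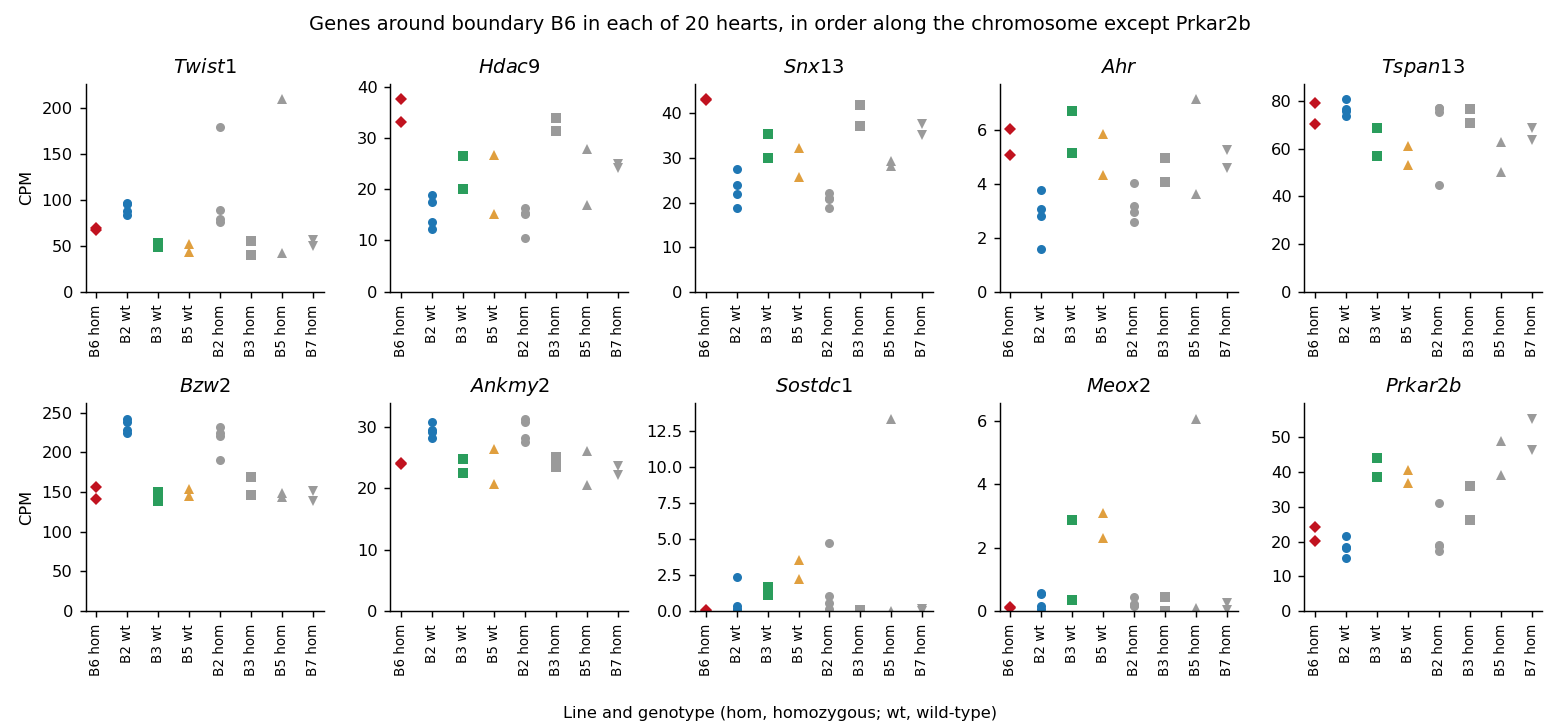
Level in CPM (vertical axis from 0, 1 panel per gene) of 10 genes around B6 in 20 hearts grouped by line and genotype, with 1 mark per heart. The B6 hearts are highest for Snx13, at 43.2 and 43.03 CPM, and their Hdac9 marks overlap only the B3 homozygous hearts.

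Farther out, Sostdc1, a secreted BMP and Wnt antagonist 1120 kb after the deletion, had 2 counts in the 2 B6 hearts and 240 in the wild-type hearts. The ratio was 31.5-fold lower in the B6 hearts, with a counting interval of 8.64 to 262, yet the lowest wild-type heart held 1 count. With 1 count in each B6 heart, Sostdc1 could pass the filter on low counts only through wild-type hearts, so it had to be lower. The homeobox gene Meox2, 1914 kb away, was at 0.133 and 0.0989 CPM against 0.0572, 0.559 and 3.10 CPM (log2 fold change -3.36, unadjusted p = 0.0507), and -1.42 without A16, A23 and A24. Meox2, with 3 and 2 counts in the B6 hearts, could likewise pass the filter only through wild-type hearts. Twist1, of head mesenchyme, 1222 kb before the deletion, was at 66.6 and 69.4 CPM against 43.6, 68.4 and 96.0 CPM. Prkar2b, 3120 kb before it, was at 20.2 and 24.2 CPM against 15.3, 29.3 and 43.9 CPM, and its log2 fold change was 0.34 against B2, and -0.40 against all 3 lines.

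Within 5 Mb, 36 genes were tested, and DESeq2 called 2, against 674 of all 15512 genes. Of the 36, 6 (16.7%) lay above all wild-type hearts and 2 below, against 11.9% and 9.11% of all genes. Beside Snx13 and Hdac9, those above were Lamb1, Cog5, Gpr22 and Sypl, named here after their values were seen because they complete the count. Lamb1, a laminin chain 3852 kb before the deletion, was at 378 and 371 CPM against 203, 221 and 293 CPM (log2 fold change 0.70, unadjusted p = 0.00076). Gpr22, a heart receptor that overlaps Cog5, was at 20.3 and 14.5 CPM against 6.48, 10.1 and 14.03 CPM. Those below were Sostdc1 and Dus4l, a tRNA-modifying enzyme (5.20 and 5.49 CPM against 5.88, 7.505 and 8.52 CPM). Sostdc1, which had to be lower, was also 1 of the 2 genes called by DESeq2.

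**Figure D5:**
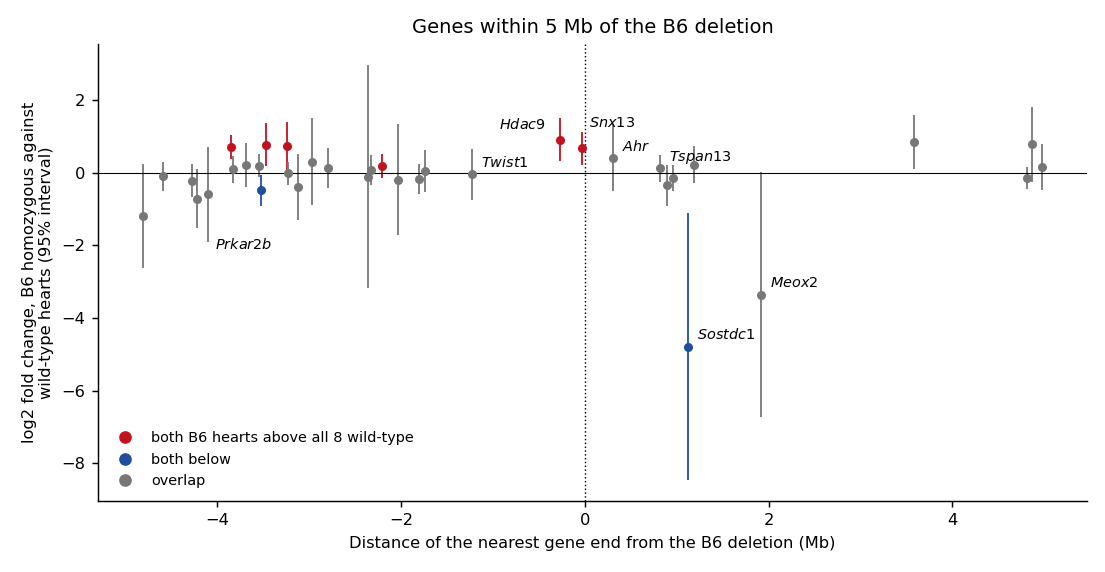
Log2 fold change with its 95% interval (vertical axis) of 36 tested genes against their distance in Mb from the B6 deletion (horizontal axis, dotted line at the deletion). Both B6 hearts were above all 8 wild-type hearts for the red genes, including Hdac9 at 0.91 and Snx13 at 0.68 just before the deletion, and below them for the blue genes.

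The embryonic face is the tissue in which the B6 line has both genotypes, with 2 samples each, so it separates line from genotype there. B6 wild-type faces were compared with wild-type faces of B3, B5 and B7, and edgeR called 0 of 15661 genes, with 805 higher (5.14%) and 593 lower (3.79%) at an unadjusted p under 0.05, while DESeq2 called 79. B6 homozygous faces against B6 wild-type faces gave 2 genes higher (0.0131%) and 9 lower (0.0592%) of 15210, with 389 higher (2.56%) and 927 lower (6.09%) at an unadjusted p under 0.05, and DESeq2 called 161. The B6 wild-type faces take part in both comparisons, so the values below are set side by side only.

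In the face, Snx13 had a log2 fold change of 0.18 between lines and -0.02 between genotypes (95% interval -0.30 to 0.27). Hdac9 had -0.11 between lines and 0.19 between genotypes (-0.28 to 0.67). The interval of Snx13 in the face thus ended below the 0.68 of the hearts, and that of Hdac9 ended below 0.91, while the intervals of the hearts reached down to 0.22 and 0.31. The heart and face differences were not tested against each other. Meox2 was higher in B6 wild-type faces than in those of other lines (0.62, unadjusted p = 0.00228) and lower in B6 homozygous faces (-0.999, unadjusted p = 0.00291, adjusted p = 0.289). Sostdc1 had 0.33 and -0.23 in the same order. Other markers moved with the genotype in the same 2 homozygous faces. The skeletal muscle genes Myh3 (-2.12), Myog (-0.78) and Myod1 (-0.69) and the arch gene Tbx1 (-1.17) had negative values. The muscle gene Pax7 was at -0.17. Other arch and cranial genes had positive values, namely Lhx6 (0.49), Barx1 (0.40), Alx1 (0.27) and Gsc (0.24). The mitochondrially encoded mt-Nd5 was at 323 and 238 CPM in the homozygous faces and 788 and 806 CPM in the wild-type faces, past the edgeR threshold (-1.51, adjusted p = 0.0491), with mt-Co1 at -1.45. The homozygous face A7 stood apart for Hoxa2, at 0.0454 CPM against 15.5 CPM in A5. The part of tissue content or RNA quality in the face values was not tested.

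Face CPM values are scaled among the faces compared. Of the genes that led the heart comparison, Flnc had a log2 fold change of 0.70 between lines and -1.13 between genotypes in the face. The face genotype value was opposite in sign to the 1.22 of the hearts, and other striated muscle genes were also negative in it (Ttn -1.71, Myh7 -1.86, Tnnt2 -1.19). Acacb was -0.15 in both face comparisons, and Tyms was -0.08 and 0.07. Flnc lay at 48.3 and 57.0 CPM in B6 wild-type faces and at 17.8, 34.9 and 40.2 CPM in the other wild-type faces. These genes are expressed at other levels in the face, where Acacb was between 3.75 and 5.43 CPM in wild-type samples.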

How the data were processed

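Total RNA of microdissected hearts was sequenced as paired reads on Illumina machines. The authors aligned reads to mm10 with STAR and estimated expression per gene with RSEM on GENCODE annotation (per the study's methods and processing notes). The library kit and its strandedness are not given in the sources used here. The deposited expected counts, estimates that need not be whole, were rounded for tests. The deposited TPM values, normalised for length and depth by the authors, were used only to check the tissue. Entries without an Ensembl gene identifier were left out.

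The quasi-likelihood test of edgeR 4.0.16 (R 4.3.3, 2-sided, Benjamini-Hochberg adjustment) was run on genes that passed filterByExpr, after TMM scaling. DESeq2 1.42.0 was an alternative. The fit had 2 B6 homozygous and 8 wild-type hearts and no covariate. Tests were checked on simulated counts. Samples are separate embryonic hearts or faces by their labels. Whether they are separate embryos is stated only for the study in general, so p-values measure the spread between these samples.

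Members, gene lists and tests were chosen with earlier results of these data known. The text names tested genes within 1 Mb of the deletion, 5 genes the study names, the 12 genes in each direction with the smallest p outside the wild-type range, up to 4 members per list by p, sex genes and 5 heart markers. A member of these lists is not reported here. Intervals on ratios of counts cover counting error only.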

Additional observations from a re-analysis of the deposited data

Results flagged for a closer look

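Among the 85 named genes, 3 had a wild-type heart far from the other 7, measured as the gap to the nearest heart over the whole range against a critical value of 0.526. All 3 were high in the B3 wild-type heart A14. Ttn was at 192 CPM there against 125 CPM in the next heart, Syne1 at 25.4 CPM against 19.8 CPM and Rbm20 at 77.7 CPM against 57.9 CPM. Both B6 hearts lay above A14 for each of them, as the naming rule required for Syne1 and Rbm20. Chance flags about 1 in 20 such groups.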

How the results depend on the processing

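The count of genes past an adjusted p of 0.05 in the hearts, 0 with edgeR, was 674 with DESeq2, 4152 with each line its own group, 3330 in a joint fit of the 20 hearts, 8640 against B2 wild-type hearts alone, 2165 against B5 alone and 86 against B3 and B5 together. It ranged from 0 to 87 with 1 heart left out, where only the fit without A14 gave any. It stayed at 0 under the other alternatives run. Among genes within 1 Mb of B6, 2 were called with each line its own group, 2 in the joint fit, 4 against B2 alone and 1 against B5 alone. Over all genes tested, these 4 fits called 4152 of 15512, 3330 of 16120, 8640 of 14885 and 2165 of 14738. With 1 wild-type heart left out, 0 genes within 1 Mb were called. The faces gave 79 calls between lines with DESeq2 and 13 without the low count filter, and 0 to 8 with 1 sample left out. Between genotypes they gave 161 with DESeq2, 5 with RLE size factors, 621 without the filter and 54 to 400 with 1 sample left out, against 11. The causes were not tested.

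Of 85 named genes, 74 kept their direction under every alternative that gave a value. With the length trend removed, the log2 fold change was -0.17 for Syne1, -0.67 for Ttn, -0.0894 for Sypl, 0.10 for Nkx2-5 and 0.31 for Twist1. With each line its own group and in the joint fit it was 0.16 and 0.16 for Nkx2-5, 0.14 and 0.15 for Nppa, 0.013 and 0.0148 for Tnnt2 and 0.16 and 0.17 for Twist1. Against B3 alone, B5 alone and both together it was 0.68, 0.64 and 0.66 for Nkx2-5, 0.64, 1.00 and 0.82 for Nppa, 0.52, 0.44 and 0.49 for Tnnt2 and 0.39, 0.49 and 0.45 for Twist1. Against B3 alone and both together it was -0.12 and -0.00016 for Ahr and 0.027 and 0.0135 for Bzw2. For Ankmy2 it was 0.0266 against B5 alone and 0.0189 against both, and for Prkar2b 0.34 against B2 alone. Twist1 was 0.0322, 0.0073 and 0.0301 without A56, A59 and A60.

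Removing the length trend, using B3 and B5 controls and leaving out A16, A23 and A24 were chosen after seeing the data. No paired analysis was possible because the library codes are unique to each sample and pair none across groups. Where leaving out a sample left an arm with 1 sample, as for A6, A8 and every face of B6, that sample was assumed to vary like the other group, which alone gave the spread.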
